A study of Mus musculus with 23 samples.

Results

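The genes described here encode the adult hemoglobin chains of the mouse, alpha (Hba-a1 and Hba-a2) and beta (Hbb-bs and Hbb-bt), together with Alas2, the erythroid enzyme of the first step of heme synthesis. They are 5 of the 49315 genes in the deposited count table, taken by name and found there by gene ID, and 4 of them held enough counts to be tested. They were measured by RNA sequencing of the left ventricle, which pumps blood into the aorta, from FVB mice, an inbred strain, in 23 libraries. The mice had breathed filtered air, e-cigarette vehicle or e-cigarette vehicle with nicotine for 3 months (4 hours a day, 5 days a week), from an age of 3 weeks or of 3 months. The groups are called air, vehicle and nicotine with the starting age, and held 4 libraries each except 3-week vehicle, which held 3. Replicate numbers are those of the labels and are not continuous. Because exposure lasted equally long, starting age and age at the end cannot be told apart, and no batch, sex or day is given. Whether each library is a separate animal is not stated, and p-values therefore reflect the spread between libraries, part or all of which may be technical.

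Hemoglobin is built in red cell precursors from alpha and beta chains that each carry a heme group. The enzyme made from Alas2 starts heme synthesis in those precursors, while its relative made from Alas1 does so in other tissues. Mature red cells of mammals have no nucleus, but young circulating ones, the reticulocytes, still hold RNA that is rich in globin transcripts. A ventricle holds blood in its vessels, and in RNA from whole tissue fewer cells of a type and less RNA per cell cannot be told apart.

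The alpha genes are close copies of each other, and so are the beta genes, which bears on every value given below. In the GENCODE vM21 transcripts, which come from the C57BL/6J reference and not from FVB, the 426-base coding sequences of Hba-a1 and Hba-a2 differed at 1 base, C381T. The 441-base coding sequences of Hbb-bs and Hbb-bt also differed at 1 base, C417T, with positions counted from 1 at the first base of the start codon and the base of Hba-a1 or Hbb-bs given first. The longest stretch shared without a difference was 380 bases in the alpha pair and 416 bases in the beta pair. The treatment of reads that match more than one copy is not given in the sources used here. The division of counts within a pair is therefore uncertain. The coding stretches around the differing base (capital), bases 351 to 411 for the alpha genes and 387 to 441 for the beta genes, show how little separates the copies.
Hba-a1: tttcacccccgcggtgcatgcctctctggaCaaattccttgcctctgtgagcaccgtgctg
Hba-a2: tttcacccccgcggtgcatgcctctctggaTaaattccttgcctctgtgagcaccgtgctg
Hbb-bs: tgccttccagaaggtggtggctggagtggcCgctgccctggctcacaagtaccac
Hbb-bt: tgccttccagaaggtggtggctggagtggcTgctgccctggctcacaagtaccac

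The promoters are shown because the levels of these genes varied together across libraries. Each stretch is the 130 bases before the RefSeq start (GRCm38.p6), read 5′ to 3′ on the gene's strand. The stretches are chr11:32283542-32283671 (plus strand) for Hba-a1, chr7:103827929-103828058 (minus strand) for Hbb-bs, chr7:103813924-103814053 (minus strand) for Hbb-bt and chrX:150547287-150547416 (plus strand) for Alas2. GENCODE models of these genes begin within or upstream of the windows. Capitals mark 4 motifs. The motif GATAA, a common form of the sites of GATA factors, the motif CACCC, found in boxes bound by KLF1, and the motif CCAAT, bound by NF-Y and related factors, were searched on both strands. The motif TATAA, the core of the TATA box, was searched on the gene's strand.
Hba-a1: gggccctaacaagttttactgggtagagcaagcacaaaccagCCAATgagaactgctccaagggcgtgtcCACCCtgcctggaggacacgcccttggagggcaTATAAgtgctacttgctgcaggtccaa
Hbb-bs: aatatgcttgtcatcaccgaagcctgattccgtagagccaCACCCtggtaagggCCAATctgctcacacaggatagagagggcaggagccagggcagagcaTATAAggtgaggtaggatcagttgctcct
Hbb-bt: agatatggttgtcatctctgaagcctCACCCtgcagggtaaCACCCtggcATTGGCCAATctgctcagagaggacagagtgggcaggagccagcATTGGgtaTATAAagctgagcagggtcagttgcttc
Alas2: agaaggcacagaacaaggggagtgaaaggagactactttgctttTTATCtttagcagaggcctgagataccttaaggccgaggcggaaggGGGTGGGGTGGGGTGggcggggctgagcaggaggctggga

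The 3 globin windows printed, and that of Hba-a2, held the CACCC motif, the CCAAT motif and the TATAA motif but not the GATAA motif. The Alas2 window held 1 match to GATAA and 3 matches to CACCC, and no match to the other 2. Among 32851 promoter windows of this length, 11.4% held GATAA, 33.7% held CACCC, 22.4% held CCAAT and 9.1% held TATAA. No match overlapped another in the windows printed, and a match is a description of the letters only.

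Globin transcripts were a small part of the ventricular RNA. The 4 globin genes together took 0.0294% to 0.243% of all counts in a library, whose totals ran from 12297955 to 17821550 counts. Hbb-bs held 2368 to 16570 counts per library and Hba-a1 1997 to 13940, while Hbb-bt held 235 to 1094 and Alas2 150 to 780. Hba-a2 held 1 to 7 counts in every library, or 1.37 to 13.7 for every 10000 counts of Hba-a1. Groups were not compared for Hba-a2, since its counts were so few and its coding sequence differs from that of Hba-a1 at a single position. Levels below are CPM, counts scaled to a common library total, with TMM scaling. Compared per kilobase of exonic length, the median library held 445.6 CPM per kb of Hbb-bs, 362 of Hba-a1, 49.96 of Hbb-bt and 10.2 of Alas2.

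Other globin genes ranged from 0 counts to high levels. Hba-x, Hbb-bh0, Hbb-bh2 and Hbb-y, the embryonic genes Hba-x and Hbb-y among them, were at 0 counts in 23 of 23 libraries. Hbb-bh1 never exceeded 1 count. Mb, which encodes the oxygen store of muscle, myoglobin, stood at 10740 to 15800 CPM and did not pass the test in any of the 11 contrasts. Some genes of nucleated red cell precursors were also scarce, with at most 6 counts of the transcription factor gene Gata1, 7 of Klf1 and 2 of Hemgn. The 9 erythroid transcription factor genes followed, Gata1 and Klf1 among them, summed to 146.2 to 203.9 CPM per library. Which cells the transcripts of this list came from was not tested.

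Library 1 of 3-week vehicle stood apart, and fold changes between its group and another are given with and without it. The 6 groups share 1 estimate of the spread, so this library also enters the standard errors and adjusted p-values of the other contrasts. It held 1218 CPM of Hbb-bs and 1025 CPM of Hba-a1, the highest of the 23 libraries for both. Its group mates, libraries 2 and 4, held 233 and 243 CPM of Hbb-bs. Libraries 1 and 2 of that group also stood apart in how level varied with gene length. That trend added 0.48 and 0.39 to the log2 level of a gene as long as Hbb-bs, against -0.21 to 0.26 in the other 21 libraries.

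**Figure D1:**
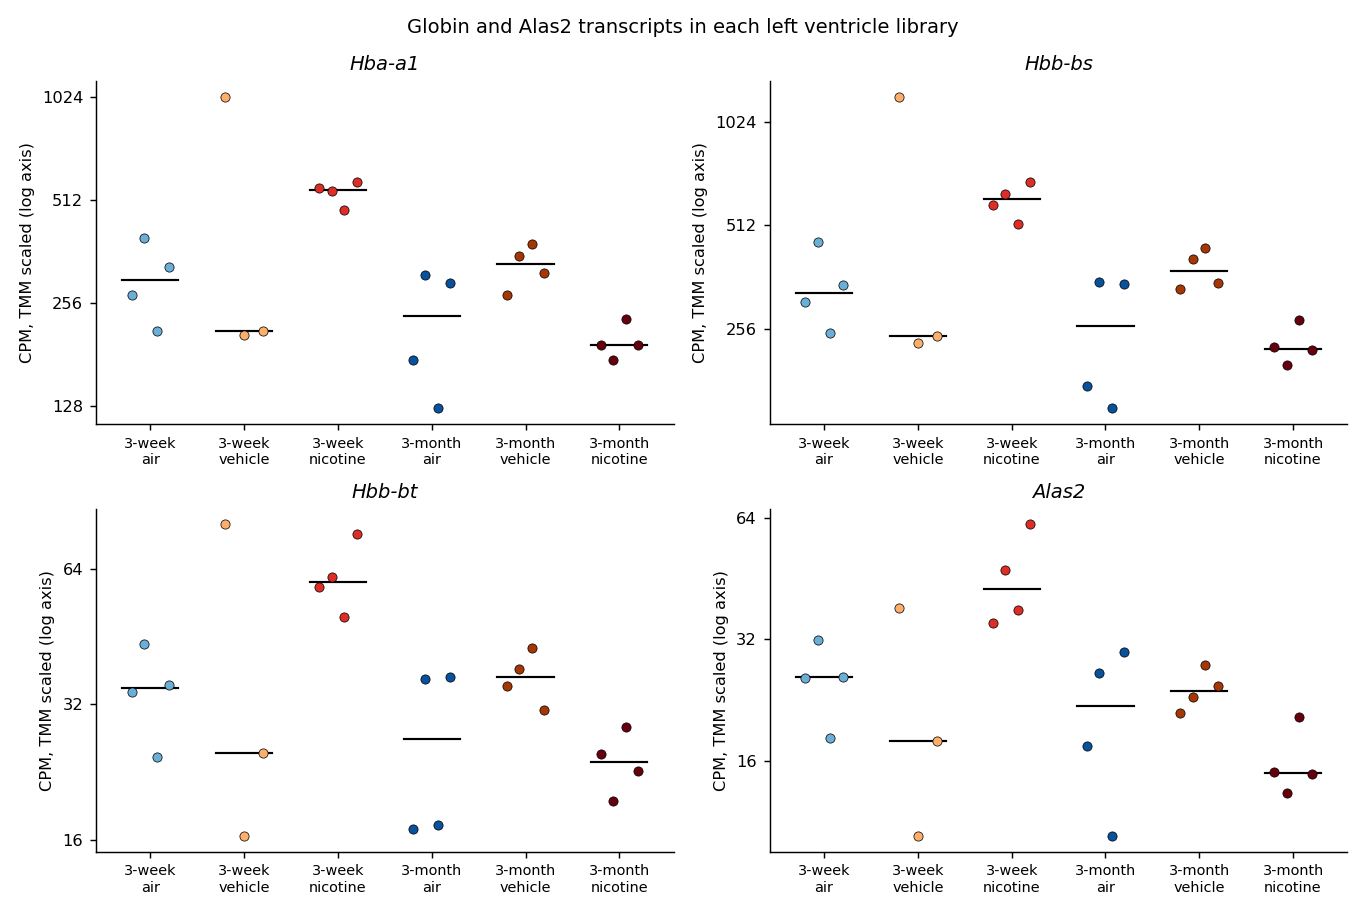
Level of each tested gene (CPM after TMM scaling, log axis) in every library by group; points are libraries and lines are group medians. The 4 libraries of 3-week nicotine lie above those of 3-week air and of every 3-month group in all panels, and library 1 of 3-week vehicle is far above its group mates.

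The clearest difference lay between the nicotine groups of the 2 starting ages. Hba-a1, Hbb-bs, Hbb-bt and Alas2 were each lower with the 3-month than with the 3-week start, by a factor of 2.57 to 2.85. Hbb-bs, the beta gene given more counts, stood at 589, 631, 518 and 687 CPM in 3-week nicotine libraries 2, 3, 5 and 6. In 3-month nicotine libraries 1 to 4 it stood at 226, 199.8, 272 and 221 CPM. The lowest 3-week library was above the highest 3-month library, so the groups did not overlap. Its log2 fold change was -1.40 ± 0.38 (SE), with an adjusted p of 0.0246 in edgeR's quasi-likelihood test with Benjamini-Hochberg adjustment over 15500 genes.

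Hba-a1, the alpha chain transcript, stood at 553.5, 542.5, 479.7 and 577 CPM in the same 3-week libraries, and at 193, 175, 231 and 193.5 CPM in the 3-month ones. The 3-week values lay close together, with a coefficient of variation of 7.74%. Its log2 fold change was -1.44 ± 0.37 (edgeR adjusted p = 0.0184). For Hbb-bt, given fewer counts than Hbb-bs, the values were 58.2, 61.4, 50.1 and 76.3 CPM against 24.9, 19.5, 28.4 and 22.7 CPM. These groups did not overlap either, and the log2 fold change was -1.36 ± 0.35 (edgeR adjusted p = 0.0178).

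Alas2 had the largest fold of the 4, with 35.0, 47.4, 37.8 and 61.6 CPM in 3-week nicotine and 15.0, 13.3, 20.5 and 14.9 CPM in 3-month nicotine. No library of one group reached the other. Its log2 fold change was -1.51 ± 0.32 (edgeR adjusted p = 0.00544). Apex2, a DNA repair gene on the opposite strand whose exons overlap those of Alas2 by up to 311 bases, held 3.85 to 9.11 CPM and differed by -0.47 ± 0.20 (edgeR adjusted p = 0.128).

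Thus 4 of 4 tested genes were called lower, in a contrast where 4.49% of all genes tested were called lower and the groups of 9.37% of genes did not overlap in that direction. DESeq2 on all libraries gave the 4 genes adjusted p-values of 0.000154 to 0.0148. A fit of edgeR on only the nicotine groups gave adjusted p-values of 6.46e-05 to 0.00136. In the edgeR fit of all groups, the call rests in part on single libraries, on the filter and on the model. Without 3-month nicotine library 2, or without library 4, only Alas2 was called (adjusted p = 0.0261 and 0.0218), and the same held with no filter on low counts (adjusted p = 0.0230). Hbb-bs alone lost its call without 3-week nicotine library 2 (adjusted p = 0.0576) or 3-month nicotine library 1 (adjusted p = 0.0591). With the replicate number as a block, which did not pair the libraries, 0 of 4 were called (edgeR adjusted p = 0.0539 to 0.105). With the block and the length trend removed together, 0 of 4 were called either (edgeR adjusted p = 0.0837 to 0.182), and Hbb-bt was at -0.87.

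Neutrophil transcripts moved the opposite way between these groups. Their 10 marker genes summed to 1.01 to 1.96 CPM in 3-week nicotine and to 6.78 to 17.98 CPM in 3-month nicotine, and 3 of the 4 tested rose (S100a8, S100a9 and Retnlg). Ly6g, the surface marker of neutrophils, was at 0 counts in 20 of 23 libraries. The 11 platelet markers summed to 12.3 to 21.2 CPM in 3-week nicotine and to 19.0 to 103 CPM in 3-month nicotine, and 0 of 11 passed the test. The length trend added -0.11 to 0.26 to log2 Hbb-bs in 3-week nicotine and -0.21 to -0.02 in 3-month nicotine. With the trend removed, the 4 log2 fold changes ran from -1.45 to -1.20 and all passed the edgeR test. The 10 endothelial markers summed to 1295 to 1554 CPM in 3-week nicotine and to 1618 to 1709 CPM in 3-month nicotine, without overlap, and 1 of 10 passed the test, Cldn5 (2.17 ± 0.44, edgeR adjusted p = 0.00475), a tight junction gene. The noncoding share of a library ran from 1.35% to 3.11% with the 3-week start and from 1.21% to 1.30% with the 3-month start, again without overlap. In vehicle, S100a8, S100a9 and Cldn5 were also higher with the 3-month start, by 4.78, 3.74 and 1.53. They passed the edgeR test there (adjusted p = 0.0156, 0.0248 and 0.041), while Hba-a1, Hbb-bs, Hbb-bt and Alas2 did not. The part of the cell markers and of the noncoding share in the result of the nicotine groups was not tested.

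**Figure D2:**
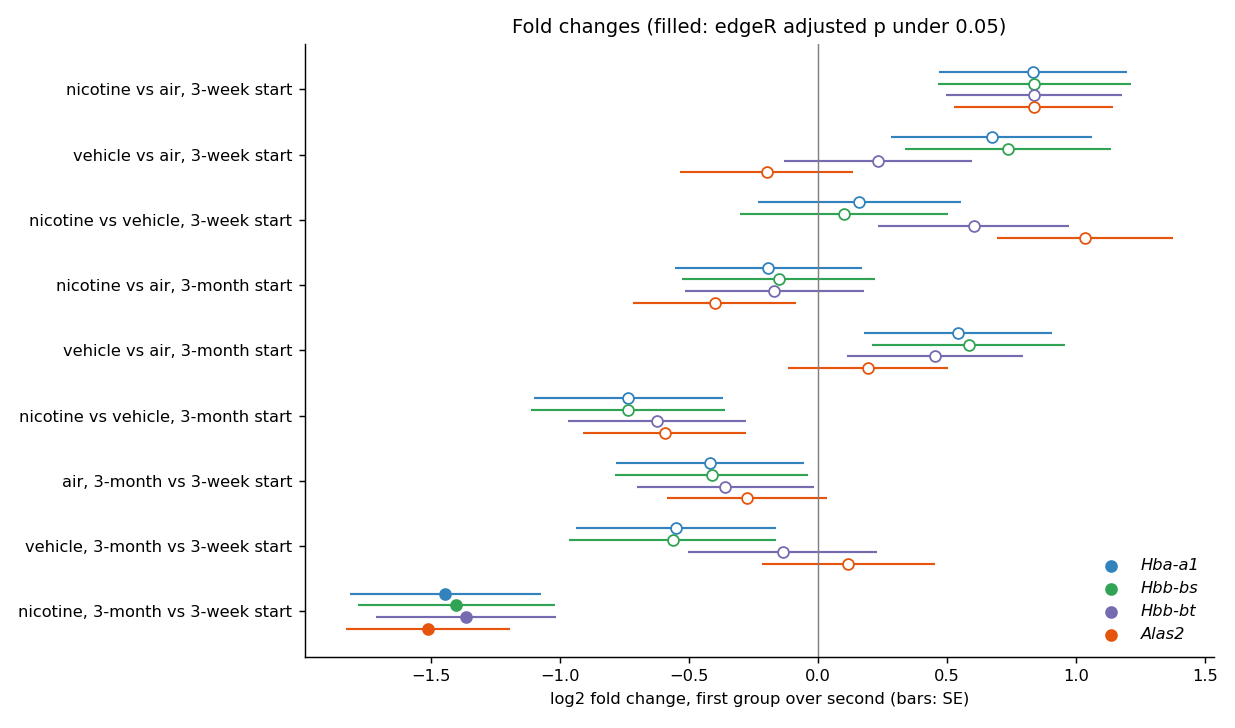
Log2 fold change (first group over second) of each tested gene in 9 comparisons, with bars of 1 SE; filled points passed the edgeR test at an adjusted p under 0.05. The 4 filled points all lie in the comparison of the nicotine groups, between -1.51 and -1.36.

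Against air of the same starting age, nicotine with the 3-week start came with higher values of the 4 tested genes, but the test on all libraries did not call them. Hbb-bs stood at 307, 457, 249 and 342 CPM in 3-week air libraries 1, 2, 4 and 5, and Hba-a1 at 271, 397, 212 and 327 CPM. Alas2 stood at 25.7, 31.8, 18.3 and 25.8 CPM in these libraries, and Hbb-bt at 24.4 to 43.7 CPM. Each of the 4 nicotine libraries listed above lay above each of these air libraries in all 4 genes. The groups of 2.57% of genes tested were separated in that direction.

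Log2 fold changes of nicotine over air were 0.84 ± 0.38 for Hbb-bs, 0.83 ± 0.36 for Hba-a1, 0.84 ± 0.34 for Hbb-bt and 0.84 ± 0.31 for Alas2. The edgeR adjusted p-values were 0.230 to 0.344, so 0 of 4 were called, where 0.813% of genes were called in either direction and 12.8% had an unadjusted p under 0.05. The unadjusted p-values of the 4 genes were 0.0125 to 0.0360. Here the call depended on the tool and on the libraries in the fit. In the authors' deposited table for this comparison, the log2 fold changes were 0.82 for each of the 4 genes, with adjusted p-values of 0.00690 for Hba-a1, 0.00717 for Hbb-bs, 0.0126 for Hbb-bt and 0.0380 for Alas2. That authors' deposited table called 0.972% of its genes. DESeq2 on only these 8 libraries also called 4 of 4 (adjusted p = 0.00736 to 0.0377), with 0.947% of genes called, while edgeR on the same libraries called 0 of 4 (adjusted p = 0.272 to 0.310).

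Blood cell markers were also followed in these groups. Platelet markers summed to 19.1 to 78.9 CPM in 3-week air, above the 12.3 to 21.2 CPM of 3-week nicotine except in the lowest air library, and all 11 had negative log2 fold changes with 0 passing the test. Neutrophil markers summed to 0.892 to 12.03 CPM in 3-week air, a range that held the 1.01 to 1.96 CPM of 3-week nicotine. The high values lay in air libraries 1 and 5. Their mean log2 CPM was 1.34 and 1.03 for neutrophil markers and 2.09 and 1.93 for platelet markers. In air libraries 2 and 4 it was -1.82 and -1.69 for neutrophil markers and -0.04 and -0.23 for platelet markers. The share of mitochondrial transcripts ran from 8.35% to 8.98% in the air libraries and from 9.09% to 10.8% in the nicotine libraries, so these groups did not overlap. The part of these measures in the result was not tested. Without air libraries 1 and 5, the 2 that were set aside as an alternative, the log2 fold change of Hbb-bs was 0.76 and that of Alas2 0.83.

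With vehicle alone, the 3-week start gave no single direction. Hba-a1 stood at 1025, 207 and 213 CPM in 3-week vehicle libraries 1, 2 and 4, Alas2 at 38.3, 10.4 and 17.9 CPM, and Hbb-bt at 80.4, 16.3 and 24.9 CPM. Library 1 was above every 3-week air library and library 2 below every one of them, so the groups overlapped. Against air, the log2 fold changes were 0.67 ± 0.39 for Hba-a1, 0.74 ± 0.40 for Hbb-bs, 0.23 ± 0.37 for Hbb-bt and -0.20 ± 0.34 for Alas2. None of the 4 passed the edgeR test (adjusted p = 0.180 to 0.687), in a contrast where 16.2% of genes tested were called. Without library 1 the values were -0.54, -0.52, -0.74 and -0.85, so that the globins changed sign. Without library 4 Hbb-bs was called (1.08, edgeR adjusted p = 0.0440), in a fit that called 6969 genes in either direction.

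Nicotine and vehicle could not be separated with the 3-week start. The log2 differences of nicotine over vehicle were 0.16 ± 0.39 for Hba-a1, 0.10 ± 0.40 for Hbb-bs, 0.60 ± 0.37 for Hbb-bt and 1.04 ± 0.34 for Alas2, with edgeR adjusted p-values of 0.159 to 0.903. In this contrast 0% of genes passed the edgeR test, with 19.3% at an unadjusted p under 0.05. DESeq2 on all libraries called 2.68% of genes, and none of these 4. Without vehicle library 1 the 4 differences were 1.35 to 1.67.

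With the 3-month start, air libraries were the most variable of the older groups. Hbb-bs stood at 174, 349.5, 149.6 and 346 CPM in 3-month air libraries 1, 2, 4 and 5, and Alas2 at 17.4, 26.4, 10.4 and 29.7 CPM. Libraries 1 and 4 were low and libraries 2 and 5 high for each of the 4 genes. In 3-month vehicle, Hbb-bs stood at 333, 408, 439.5 and 348 CPM and Alas2 at 21.0, 23.02, 27.7 and 24.6 CPM, with the higher values above the range of air for Hbb-bs and all within it for Alas2.

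Against 3-month air, nicotine gave log2 fold changes of -0.19 ± 0.36 for Hba-a1, -0.15 ± 0.37 for Hbb-bs, -0.17 ± 0.35 for Hbb-bt and -0.40 ± 0.32 for Alas2, with edgeR adjusted p-values near 1. In the authors' deposited table for these groups, the log2 fold changes were -0.20, -0.16, -0.17 and -0.41, with an adjusted p of 0.999 each. The nicotine libraries lay within the range of the air libraries in all 4 genes. Vehicle over 3-month air gave 0.54 ± 0.36, 0.58 ± 0.37, 0.46 ± 0.34 and 0.19 ± 0.31 in the same order (edgeR adjusted p = 0.450 to 0.761). In both contrasts 0% of genes passed the edgeR test, with 2.63% and 14.2% at an unadjusted p under 0.05 and 0.0129% and 0.607% called by DESeq2 on all libraries. These contrasts share the air libraries.

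Nicotine against vehicle with the 3-month start gave groups that did not overlap in any of the 4 genes. Nicotine was lower, with log2 fold changes of -0.73 ± 0.36 for Hba-a1, -0.73 ± 0.38 for Hbb-bs, -0.62 ± 0.34 for Hbb-bt and -0.59 ± 0.31 for Alas2. The groups of 6.66% of genes were separated in this direction. On all 23 libraries the edgeR test called 0 of 4 (adjusted p = 0.416 to 0.427) and 0% of genes, with 12.2% at an unadjusted p under 0.05. Fitted on these 8 libraries alone, edgeR called 4 of 4 (adjusted p = 0.00181 to 0.00882), where it called 15.8% of genes. The length trend was apart as well, adding 0.06 to 0.18 to log2 Hbb-bs in vehicle and -0.21 to -0.02 in nicotine. With the trend removed, the log2 fold changes were -0.52 for Hba-a1, Hbb-bs and Alas2 and -0.40 for Hbb-bt (edgeR adjusted p = 0.543 to 0.647). The noncoding share was 1.49% to 1.66% in vehicle and 1.21% to 1.30% in nicotine, and the mean log2 CPM of ventricular markers was 12.51 to 12.64 against 12.65 to 12.74. The part of the noncoding share and of the ventricular markers in the result was not tested.

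The starting ages did not differ detectably in air or vehicle. In air, the log2 differences of the 3-month over the 3-week start were -0.42 ± 0.36 for Hba-a1, -0.41 ± 0.37 for Hbb-bs, -0.36 ± 0.34 for Hbb-bt and -0.27 ± 0.31 for Alas2 (edgeR adjusted p = 0.760 to 0.815). This contrast called 0.00645% of genes. In vehicle they were -0.55 ± 0.39, -0.56 ± 0.40, -0.14 ± 0.37 and 0.12 ± 0.34 (edgeR adjusted p = 0.329 to 0.827), where 12.5% of genes were called, and without 3-week vehicle library 1 they were 0.66, 0.70, 0.84 and 0.77.

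Whether the nicotine effect differed between starting ages was tested directly. The effect over air was larger with the 3-week start by 1.03 ± 0.51 on the log2 scale for Hba-a1, 0.99 ± 0.53 for Hbb-bs, 1.01 ± 0.48 for Hbb-bt and 1.24 ± 0.44 for Alas2. The edgeR adjusted p-values were 0.268 to 0.564, so 0 of 4 were called, where 0.135% of genes were. The unadjusted p-values ran from 0.0103 for Alas2 to 0.0749 for Hbb-bs. For the vehicle effect the differences were 0.13 ± 0.53, 0.15 ± 0.55, -0.22 ± 0.50 and -0.39 ± 0.46 (edgeR adjusted p = 0.754 to 0.939), in a contrast with 0% of genes called by edgeR, 1861 genes at an unadjusted p under 0.05 and 66 called by DESeq2 on all libraries.

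In order of its group medians, Hbb-bs ran from 610 CPM in 3-week nicotine over 378 in 3-month vehicle, 324 in 3-week air, 260.2 in 3-month air and 243 in 3-week vehicle to 223.5 in 3-month nicotine. From 3-month vehicle downwards, each group overlapped its neighbour in this order. Only 3-week nicotine lay clear of the next group, and 3-week vehicle library 1 was the single library above it. For Hba-a1, Hbb-bs and Hbb-bt the 3-week nicotine libraries took ranks 2 to 5 of 23.

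Within a library, the proportions between the chains were steadier than their levels. For every 100 counts of both beta genes, Hba-a1 held 73.3 to 91.6 counts, while the level of Hba-a1 ranged over a factor of 8.12. Hbb-bt held 8.91 to 11.5 counts for every 100 of Hbb-bs in 21 libraries, and 6.60 and 6.998 in 3-week vehicle libraries 1 and 2. Alas2 held 5.65 to 9.996 counts for every 100 of Hbb-bs in the same 21 libraries, and 3.15 and 4.47 in those 2. These are the 2 libraries whose length trend stood apart, and Alas2, at 2403 exonic bases, is longer than Hbb-bs, at 768. For Hbb-bt, at 703 bases, the trend added 0.51 and 0.40 to the log2 level there, close to the 0.48 and 0.39 of Hbb-bs. The part of the length trend in these proportions was not tested.

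**Figure D3:**
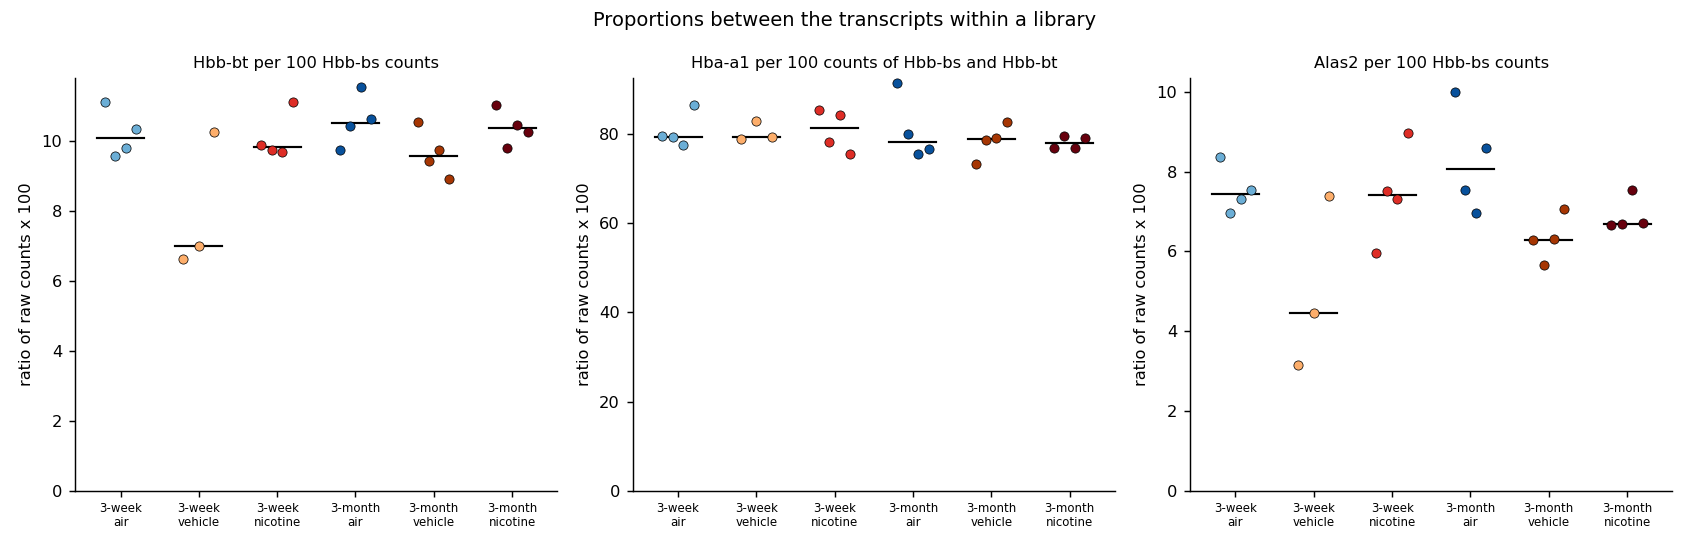
Counts of 1 transcript for every 100 counts of another in each library (axes from 0); lines are group medians. Libraries 1 and 2 of 3-week vehicle are low in the left and right panels, at 6.60 and 6.998 for Hbb-bt and 3.15 and 4.47 for Alas2, and lie within the others in the middle panel.

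Libraries of one group with more of one transcript held more of the others. Over the 23 libraries, with each group's mean removed, log2 Hba-a1 and log2 Hbb-bs correlated at r = 0.992 (rho = 0.976). Hbb-bs correlated with Hbb-bt at r = 0.968 (rho = 0.969) and with Alas2 at r = 0.887 (rho = 0.889). Each of these had an adjusted p of 1.67e-05 over 10 pairs in a two-sided permutation test within groups, from an unadjusted 1e-05, the smallest that 100000 permutations can give. Without the 2 libraries farthest from the median, 3-week vehicle 1 and 2, the values were 0.982, 0.942 and 0.828. The remaining pairs ran from r = 0.601 for Hba-a2 with Alas2 (adjusted p = 0.0177) to r = 0.946 for Hba-a1 with Hbb-bt, and those of Hba-a2 rest on 1 to 7 counts per library. The beta genes, like the alpha genes, could share reads.

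The level of Hbb-bs within groups was set against 11 other measures of a library, and none passed the permutation test. They were the mean log2 CPM of 7 marker lists (platelet, neutrophil, lymphocyte, macrophage, endothelial, ventricular and atrial), the share of mitochondrial and of noncoding counts, the length trend and the library total. The lists of white cells and platelets gave r = -0.16 for platelets, 0.02 for neutrophils, -0.21 for lymphocytes and -0.22 for macrophages. Their rank correlations were -0.15, 0.01, -0.04 and -0.33. The mitochondrial share had the largest r of the 11, at -0.478 (rho = -0.152), with -0.833 in the 11 libraries of the 3-week start and 0.445 in the 12 of the 3-month start. That relation rests on 3-week vehicle libraries 1 and 2, without which r was 0.0715. Ventricular markers gave r = 0.334 (rho = 0.344). The adjusted p was 0.978 for each Pearson r and 0.979 for each rho in the permutation test over 11 relations.

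Of the genes reported here, the 4 most like the hemoglobin group were all in the lists of red cell genes, which were chosen with earlier results known. Against the mean log2 CPM of the 4 tested genes over the 23 libraries, their Pearson correlations were 0.957 for Tent5c, 0.855 for Mkrn1, 0.852 for Slc4a1 and 0.830 for Bpgm. Slc4a1 encodes the band 3 anion exchanger of the red cell membrane, Bpgm the enzyme that makes 2,3-bisphosphoglycerate, and Tent5c a poly(A) polymerase. Other genes that were alike were Ttc38 (0.758), Mast1 (0.725), E2f2 (0.711), Phactr1 (0.707), Selenbp1 (0.693), Hdac3 (0.689) and Rit1 (0.689). With group means removed, Tent5c (0.956) again came first, followed by Slc4a1 (0.845), Asb14 (0.838), Tnrc6c (0.833) and Cpeb3 (0.784), while Mkrn1 was at 0.754. The libraries share depth and length trends, and these values are descriptions over 23 libraries. Levels were low for Slc4a1, at 0.139 to 3.79 CPM, and Tent5c, at 2.15 to 7.50 CPM.

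Other red cell genes were followed in the nicotine groups. Between the 3-month and the 3-week start, 6 of 14 tested genes of the list of other red cell genes fell and 0 rose. In this contrast 4.49% of all genes tested were called lower. The list's median log2 fold change was -0.43, against -0.02 over all genes. The list was chosen with earlier results of these data known, so these values are descriptions only. Epor, the receptor of erythropoietin, fell by 0.93 (SE 0.19, edgeR adjusted p = 0.00475). Bpgm differed by -0.63 ± 0.13 (adjusted p = 0.00475) and Mkrn1 by -0.36 ± 0.08 (adjusted p = 0.00961) in the same edgeR test. Of 10 tested membrane and skeleton genes, Slc4a1 (-1.84 ± 0.53, edgeR adjusted p = 0.0321) and Gypc (-0.84 ± 0.18, edgeR adjusted p = 0.00544), which encodes glycophorin C, fell. Ank1, which encodes an ankyrin, rose by 0.33 (SE 0.09, edgeR adjusted p = 0.0276). The 17 genes of the membrane and skeleton list summed to 750.3 to 1236 CPM in 3-week nicotine and to 1128 to 1232 CPM in 3-month nicotine. Those of the list of other red cell genes summed to 666.9 to 749.5 CPM and 620.2 to 648.7 CPM. Which cells of the ventricle the transcripts of these list genes came from, those that fell and the one that rose, was not tested.

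Genes of heme synthesis outside Alas2 moved less. In that contrast, where 4.49% of all genes tested were called lower, 3 of 14 fell and 0 rose, with a median of -0.15. They were Tmem14c and Slc25a38, carriers of the mitochondrial membrane used in heme synthesis, at -0.31 ± 0.08 and -0.41 ± 0.12, and Urod, uroporphyrinogen decarboxylase, at -0.35 ± 0.11 (edgeR adjusted p = 0.0240, 0.0374 and 0.0451). Of 6 tested erythroid transcription factor genes, 0 passed. Alas1, the enzyme of other tissues, stood at 135.7 ± 13.5 CPM in 3-week nicotine and 192 ± 11.5 CPM in 3-month nicotine (SD, n = 4 each), the opposite order to Alas2, with a log2 difference of 0.50 ± 0.19 that did not pass the edgeR test (adjusted p = 0.0994). Of 12 tested genes of heme and hemoglobin clearance and iron handling, 0 passed.

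In 3-week nicotine against 3-week air, 1 of 14 other red cell genes was called, where 0.813% of all genes tested were. Epor rose by 0.98 ± 0.19 (edgeR adjusted p = 0.0202), from 2.80 ± 0.27 to 5.54 ± 0.66 CPM (SD, n = 4 each). Bpgm differed by 0.40 ± 0.13 (adjusted p = 0.155) and Slc4a1 by 0.92 ± 0.48 (adjusted p = 0.437) without passing the edgeR test. The list's median was 0.25, against 0.02 over all genes. Vehicle against air with the 3-week start called Epor higher as well (0.86 ± 0.20, edgeR adjusted p = 0.0195), together with Blvrb, a biliverdin reductase (0.82 ± 0.21, edgeR adjusted p = 0.0248). Eif2ak1, the heme-regulated eIF2 kinase, was lower there (-0.56 ± 0.16, edgeR adjusted p = 0.0319). In that contrast 2 of 14 heme synthesis genes rose, Urod and Slc25a37, and 2 fell, Cpox and Fech, where 16.2% of all genes were called. The tested genes of the hemoglobin group were not called there.

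**Figure D4:**
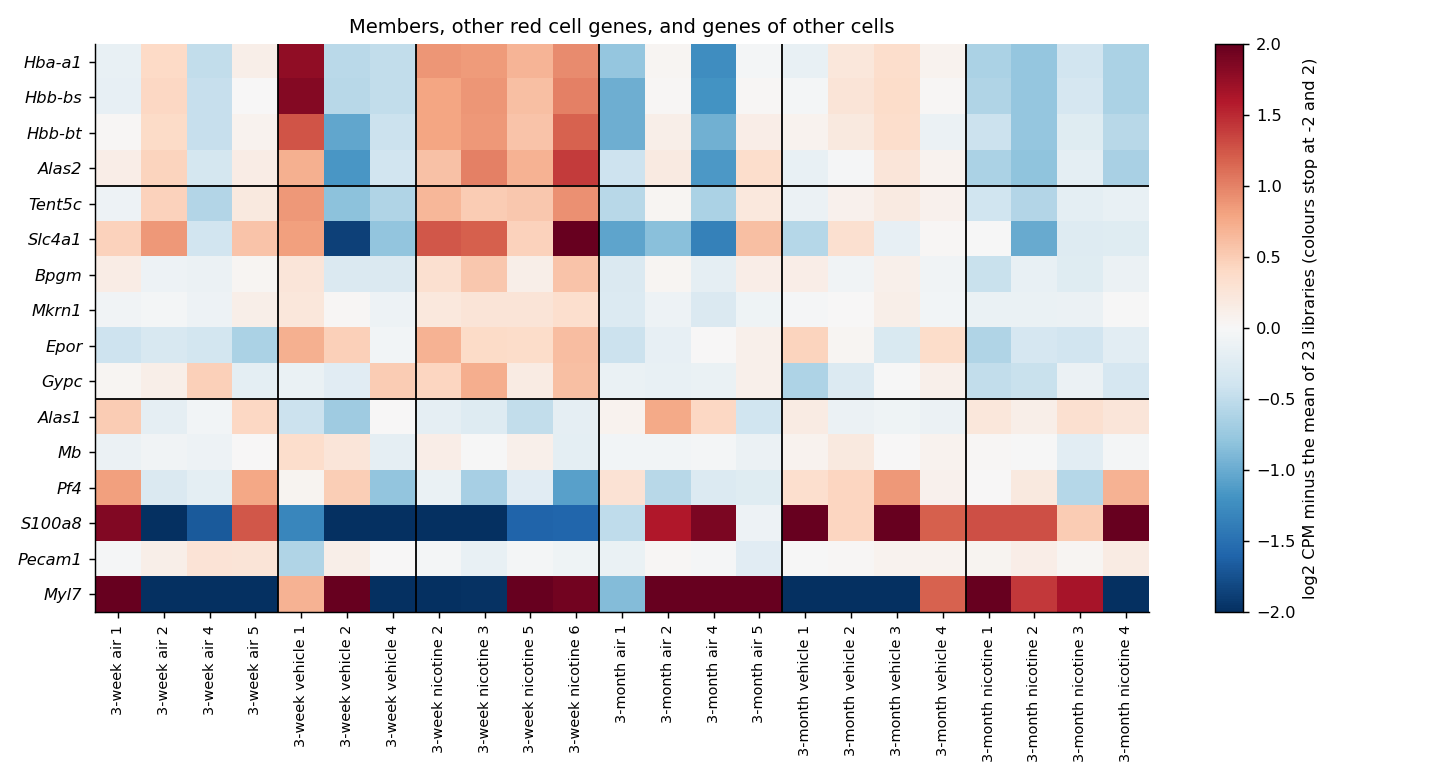
Log2 CPM minus the mean of the 23 libraries for the 4 tested genes (top block), 6 other red cell genes (middle) and genes of other cells and functions (bottom); black lines part the groups and colours stop at -2 and 2. The 4 tested genes and the 6 genes of the middle block are positive in 4 of 4 libraries of 3-week nicotine. The 6 genes were picked from lists chosen with earlier results of these data known, so this is a description only. Other genes of those lists are not shown, among them Ank1, which rose between the nicotine groups.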

How the data were processed

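The count table that the authors deposited holds raw whole-number counts of 49315 genes in 23 libraries. The tools listed in the submitters' processing notes are Trimmomatic 0.36, STAR 2.5.2b, Subread 1.5.2 with featureCounts, and DESeq2. Genome build, annotation, strand setting and treatment of reads with several matches: not given in the sources used here. For nicotine against air, the authors' deposited tables hold log2 fold changes, p-values and a signal column per library, which equals the count divided by a size factor for 100% of values within 0.1%.

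Gene symbols, exons and exonic lengths were looked up by ID in GENCODE vM21. The test was edgeR 4.0.16 in R 4.3.3 (TMM, filterByExpr with a minimum count of 10, 15500 genes kept, 1 robust quasi-likelihood fit of 6 groups, 17 residual degrees of freedom), with Benjamini-Hochberg adjustment and a threshold of 0.05. Log2 fold changes are given ± SE. Alternatives were DESeq2 1.42.0, voom of limma 3.58.1, RLE scaling, no filter, a length offset, a replicate block, other sets of libraries, and totals without these genes. DESeq2 on only the compared groups was added after seeing the data. The procedure was tested on simulated counts. These were drawn without an outlying library, a length trend or covariation between genes, so that test does not bear on such features. Correlations used 100000 permutations within groups (scipy 1.17.1).

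The genes and the 13 lists were chosen with earlier results of these data known. Named genes were the members, up to 4 called genes with the smallest p per list and contrast, genes of the erythroid lists with their levels, and the 12 most alike genes. Some genes that these rules name are not reported here. No 2 libraries held identical counts, and the least different replicates had a chi-square of 4.67 per degree of freedom.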

Additional observations from a re-analysis of the deposited data

How the results depend on the processing

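Of 928 combinations of a gene, a contrast and an alternative, 849 kept the direction and the side of the threshold, 47 changed sign, 19 lost a call and 13 gained one. The cause was not tested where none is named. In nicotine with the 3-month against the 3-week start, 1 of 4 genes was called with no filter on low counts, 0 with a replicate block and 0 with the block and length offset, where Alas2 had adjusted p-values of 0.0539 and 0.0837. Replicate numbers did not pair the libraries (16 same-numbered pairs, r = -0.37 to 0.283), so the block only shares numbers. The count was 1 to 4 without single replicates. Nicotine against air with the 3-week start had 4 called by DESeq2 on only these groups, and nicotine against vehicle with the 3-month start had 4 by edgeR and 4 by DESeq2 on only those groups.

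Vehicle against air with the 3-week start held 0 to 1 calls without single replicates. The 1 call was Hbb-bs without vehicle library 4, in a fit that called 6969 genes. There Hbb-bt was -0.18 with the length offset, -0.15 with block and offset and -0.0857 by voom. Without 3-week vehicle libraries 1 and 2, Hba-a1, Hbb-bs and Hbb-bt were -0.49, -0.46 and -0.45. Leaving out single replicates gave -0.54 to 1.03 for Hba-a1, -0.52 to 1.10 for Hbb-bs, -0.74 to 0.61 for Hbb-bt and -0.85 to 0.14 for Alas2. In vehicle, 3-month against 3-week start, Hbb-bt was 0.10 with the offset, 0.0200 with block and offset and 0.20 by voom, and without vehicle libraries 1 and 2 the globins were 0.61, 0.64 and 0.55. Single replicates left out gave -0.91 to 0.66, -0.93 to 0.70, -0.51 to 0.84 and -0.22 to 0.77 for the 4 genes in that order.

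For the vehicle effect between ages, Hba-a1 and Hbb-bs were -0.0549 and -0.0480 with the offset, -0.0649 and -0.0460 with block and offset, -1.03 and -1.05 without vehicle libraries 1 and 2, and -0.35 and -0.37 by voom. Single replicates left out gave -1.08 to 0.49 for Hba-a1, -1.11 to 0.52 for Hbb-bs and -1.20 to 0.15 for Hbb-bt. In nicotine against vehicle with the 3-week start, Hbb-bs was -0.0596 with the replicate block, and single replicates left out gave -0.21 to 1.36 for Hba-a1 and -0.28 to 1.35 for Hbb-bs. With the 3-month start, nicotine against air ran from -0.34 to 0.0398 for Hbb-bs and from -0.33 to 0.0195 for Hbb-bt, and vehicle against air from -0.0290 to 0.41 for Alas2.

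With group means kept, the correlation of Hba-a2 with Alas2 was 0.382 (permutation adjusted p = 0.0710), and those of Hbb-bs with neutrophil markers, ventricular markers and library total were -0.459, -0.127 and -0.217. The correlation of Hbb-bs with the length measure was 0.163 with the offset. Without the 2 farthest libraries, Hbb-bs correlated at 0.173 with atrial markers, 0.0715 with the mitochondrial share, 0.0683 with the length measure and -0.0724 with the total. Counts of Hba-a2, at most 7, allow no comparison between groups at this depth, and its correlations rest on them.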
